A study of Mus musculus and Homo sapiens with 47 samples.

Results

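Wnt feedback and ligand genes were followed through Eed loss in mouse intestinal stem cells: the ligands Wnt3 and Wnt6, the extracellular and membrane inhibitors Notum and Apcdd1, the receptor-removing ubiquitin ligases Znrf3 and Rnf43, the intracellular inhibitors Nkd1 and Axin2, and the transcription factors Sp5 and Lef1. These 10 genes were chosen by name, among 24014 genes of the bulk count table and 24052 of the single-cell matrices, and all 10 were found in both. The choice was made with earlier results of these data known, so counts of members beside those of all genes are descriptive. All mice carried floxed Eed alleles (Eed F/F) and Lgr5EGFP-IRES-CreERT on a B6;129 mixed background. Tamoxifen was given on 5 consecutive days and on alternate days afterwards, and epithelial cells of the proximal intestine were sorted for GFP. Eed is a core subunit of Polycomb repressive complex 2, which places the silencing mark H3K27me3 on histone H3. Bulk RNA came from 8 libraries (3 at day 9, 2 each at days 14 and 21, and 1 at day 30), and droplet-based 3' single-cell RNA from 1 library each of days 7, 12 and 16. The mice were adult, with no age given in weeks, and the event from which days run is not stated. Recombination and the sort both depend on Lgr5 activity, and no wild-type RNA library was analysed here, so day 9 (bulk) and day 7 (single cells) served as references.

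In the intestinal crypt, Wnt ligands bind Frizzled and LRP co-receptors, beta-catenin is spared from destruction, and with TCF/LEF proteins it switches on target genes that maintain stem cells. Many targets are brakes on the pathway: Axin2 helps to destroy beta-catenin, Znrf3 and Rnf43 take Frizzled off the cell surface until R-spondin and LGR receptors hold them back, Notum removes a lipid that Wnt ligands need, Nkd1 acts on Dishevelled, and Apcdd1 binds Wnt and LRP at the membrane. Paneth cells, the secretory neighbours of the stem cells, are a known source of Wnt3. Sp5 is a direct target that encodes a zinc finger factor, and Lef1 encodes a DNA-binding partner of beta-catenin.

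The upstream 250 bases of Axin2 are shown because it held the largest called difference among the members in bulk RNA. Those of Sp5 are shown because they held most matches to the core word of TCF/LEF proteins. The RefSeq promoter table (GRCm38.p6) held 7 of the 10 members, without Notum, Znrf3 and Apcdd1. The core word was searched on both strands as CTTTGAA and as the versions of it that end in AT, in TA or in TT, all sharing their first 5 letters, and 14.8% of 32841 upstream windows of this length held at least 1. Of the members in the table, Sp5 held 2 words and 1 of the 4 Lef1 starts held 1. The windows below lie on the plus strand, at chr2:70474673-70474922 (Sp5) and chr11:108920099-108920348 (Axin2), each ending at the base before the start of transcription, and capitals mark the words.
Sp5: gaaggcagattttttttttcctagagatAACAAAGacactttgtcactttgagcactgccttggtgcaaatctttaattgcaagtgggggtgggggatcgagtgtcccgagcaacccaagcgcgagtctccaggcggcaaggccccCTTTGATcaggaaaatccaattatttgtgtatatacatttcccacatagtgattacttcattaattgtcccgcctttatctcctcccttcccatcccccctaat
Axin2: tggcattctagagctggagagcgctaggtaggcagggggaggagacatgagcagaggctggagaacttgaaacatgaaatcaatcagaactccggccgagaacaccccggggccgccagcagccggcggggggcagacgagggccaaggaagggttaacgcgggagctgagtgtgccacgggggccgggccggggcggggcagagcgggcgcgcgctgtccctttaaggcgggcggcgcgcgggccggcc
In Sp5 one word, read on the minus strand, begins 222 bases before the start, and the other, on the plus strand, 104 bases before it. A match is a description of letters and not of binding, and the lack of one says only that these words are absent from this window.

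The libraries differed in ways that run along with the days. Bulk totals were 21328684 to 27900351 counts, and 13707 and 14988 genes were detected in the day 14 libraries against 16163 to 16952 in the others. Xist was at 711 to 1265 CPM (counts scaled to a common library size) in day 9 and 815 CPM in day 21 replicate 1, and at 0 to 3.09 CPM in the other 4 libraries, which carried Y-linked transcripts (Ddx3y at 38.4 to 55.6 CPM, against 0 in the Xist-high libraries). The labels give no sex, so for day 14 or day 30 against day 9 the day and this difference cannot be told apart, while day 21 holds 1 library of each kind. The same split ran through the single-cell libraries, with Xist at 1303, 1238 and 0.85 CPM and Ddx3y at 0, 0 and 39.1 CPM at days 7, 12 and 16. Eed, whose floxed part cannot be read from a gene count, was at 34.2 to 46.3 CPM outside day 14 and at 81.5 and 86.1 CPM in day 14, and Cdkn2a, a gene under Polycomb silencing, at 8.08 to 11.9 CPM at days 21 and 30 against 0 to 0.39 CPM earlier. Sumo2 was at 171 to 195 CPM at day 9, 364 and 374 CPM by day 14 and 0.20 to 0.30 CPM at days 21 and 30. The stem markers Lgr5 (115 to 186 CPM) and Olfm4 (4773 to 8136 CPM) were present in all 8 bulk libraries. In single cells Lgr5 was at 197, 233 and 44.9 CPM and Olfm4 at 241, 10.1 and 437 CPM at days 7, 12 and 16, so the sorted cells of day 12 held little of one defining stem cell transcript and much of the other.

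**Figure D1:**
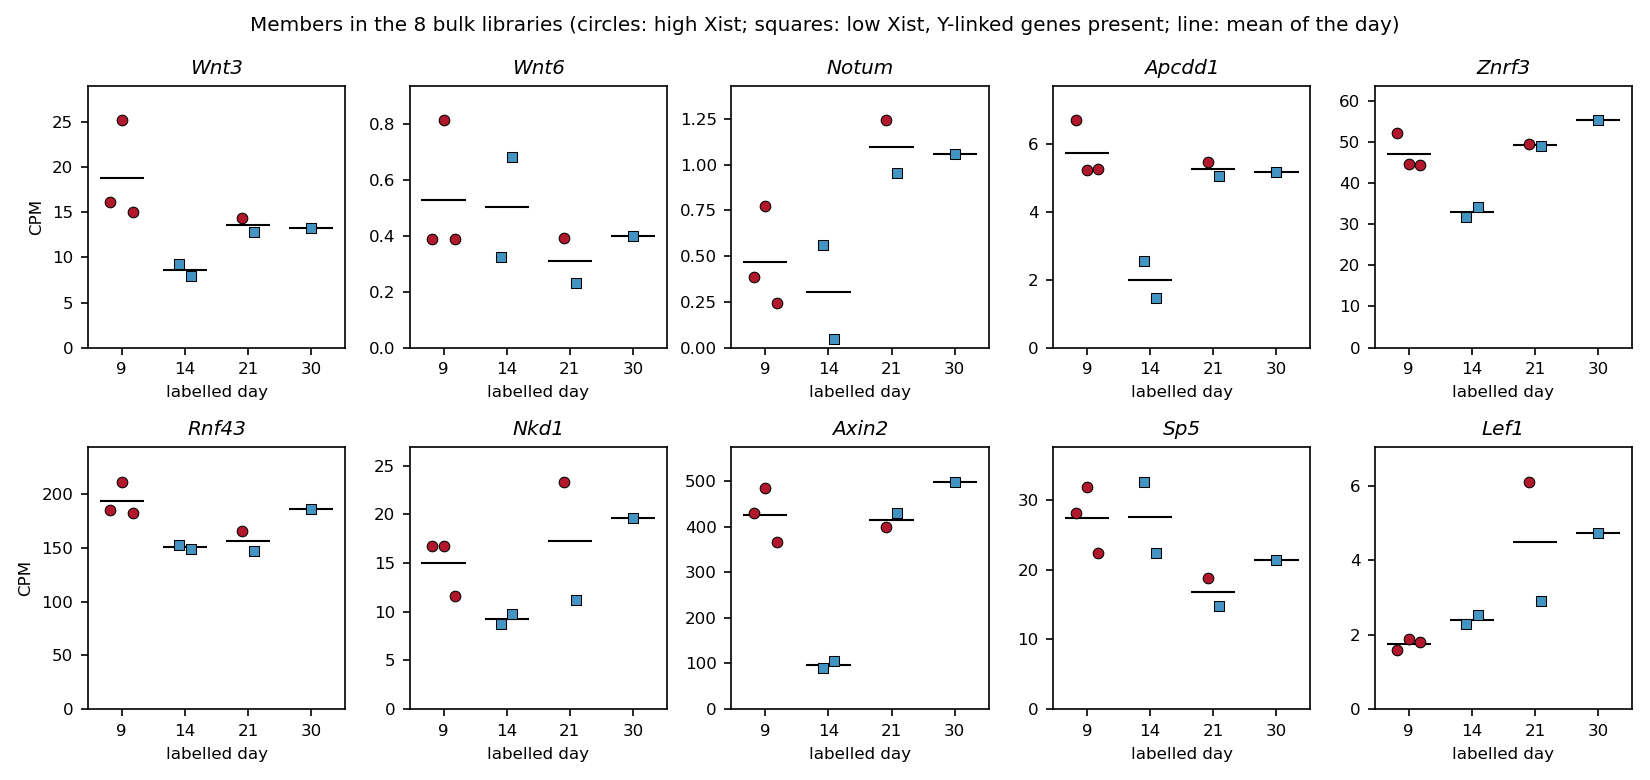
CPM (y axes, linear from 0) of the 10 members in each bulk library against labelled day (x axes); circles are libraries with high Xist, squares those with low Xist and Y-linked transcripts, and lines are day means. Axin2 lay between 89.2 and 106 CPM at day 14 and between 367 and 498 CPM in every other library.

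Axin2, the scaffold of the beta-catenin destruction complex that is induced by the pathway itself, showed the largest difference in bulk RNA. Its level was 429, 483 and 367 CPM in the 3 day 9 libraries, 89.2 and 106 CPM in those of day 14, 400 and 429 CPM by day 21 and 498 CPM in the day 30 library. Day 14 thus stood below every other library, and the later days lay within or just above the day 9 range. At day 14 Axin2 fell 4.37-fold against day 9 (log2 fold change -2.13, SE 0.14, adjusted p = 5.8e-06, edgeR quasi-likelihood F test with Benjamini-Hochberg adjustment over 14692 genes), and from day 14 to day 21 it rose 4.25-fold (log2 2.09, SE 0.15, edgeR adjusted p = 6.05e-06). Replicates are labelled biological, and in sorted bulk RNA fewer cells of a type and less RNA per cell cannot be told apart.

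Day 14 against day 9 called 5 of the 10 members lower and none higher at an adjusted p under 0.05, where 51.1% of all tested genes were called, 25.7% lower and 25.4% higher. The members' median log2 fold change was -0.57 against -0.04 over all genes, and 7 members had groups that did not overlap, as had 69.3% of all genes. Besides Axin2, Apcdd1 fell from 6.72, 5.24 and 5.27 CPM to 2.56 and 1.46 CPM (log2 -1.51, SE 0.31, edgeR adjusted p = 0.00358). The ligand Wnt3 fell from 16.1, 25.2 and 15.03 CPM to 9.25 and 7.97 CPM (log2 -1.13, SE 0.24, edgeR adjusted p = 0.00457). Neither gene's groups overlapped. The ligases moved less: Znrf3 fell 1.43-fold, from 44.4 to 52.1 CPM in the day 9 libraries to 31.7 and 34.0 CPM (edgeR adjusted p = 0.00337), and Rnf43 fell 1.28-fold, from 183 to 212 CPM to 153 and 149 CPM (edgeR adjusted p = 0.0139). The call of Rnf43 was lost without day 14 replicate 2 (edgeR adjusted p = 0.0857).

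The other 5 members did not pass at day 14. Nkd1 was at 16.7, 16.7 and 11.7 CPM at day 9 and at 8.69 and 9.71 CPM at day 14 (log2 -0.71, SE 0.31, edgeR adjusted p = 0.0848). Its groups did not overlap, and it was called lower by DESeq2 (adjusted p = 0.0354), with only the libraries of these days (edgeR adjusted p = 0.0161) and without day 9 replicate 3 (edgeR adjusted p = 0.0467). Sp5 had the same mean on both days, 27.5 and 27.6 CPM. Lef1 was at 1.59 to 1.87 CPM and then 2.28 and 2.53 CPM (log2 0.46, SE 0.37, edgeR adjusted p = 0.331). Notum and Wnt6 stayed under 1 CPM in all 5 libraries and their fitted changes had SEs of 0.88 and 0.68, so no change was detectable at this depth.

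**Figure D2:**
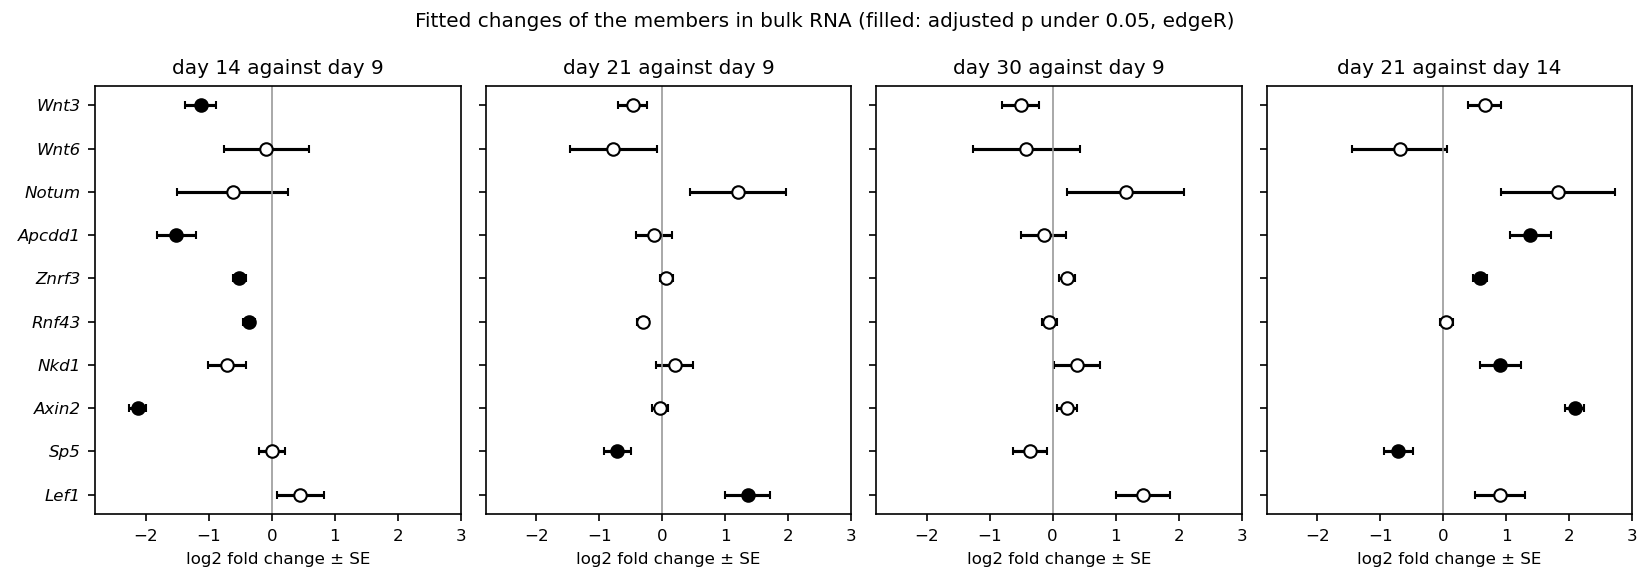
Fitted log2 fold changes with their SE (x axes) of the 10 members (y axis) in 4 comparisons of bulk RNA; filled points passed an adjusted p of 0.05 in edgeR. Day 14 against day 9 has 5 filled points to the left, and day 21 against day 9 has 1 filled point on each side of 0.

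By day 21 most members did not differ detectably from day 9. Day 21 against day 9 called Lef1 higher and Sp5 lower, where 20.2% of all genes were called, 7.46% higher and 12.8% lower. The groups of 5 members did not overlap, as for 53.7% of all genes. Lef1 was at 6.11 and 2.89 CPM at day 21, above all 3 day 9 libraries, and rose 2.56-fold (log2 1.36, SE 0.36, edgeR adjusted p = 0.0292). Sp5 was at 18.8 and 14.8 CPM against 28.2, 31.9 and 22.4 CPM and fell 1.64-fold (log2 -0.71, SE 0.21, edgeR adjusted p = 0.0479). Both calls were thin. Leaving out single libraries gave Lef1 an edgeR adjusted p of 0.0579 to 0.270 in 4 of 5 cases, with the call remaining only without day 21 replicate 2, and Sp5 one of 0.0622 to 0.211 in 4 of 5 cases, with the call remaining only without day 9 replicate 3. Without the day 14 libraries, which stand apart, Sp5 had an edgeR adjusted p of 0.0504.

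The 2 day 21 libraries, which differ in Xist, also differed in single members. Nkd1 was at 23.4 CPM in replicate 1 and 11.2 CPM in replicate 2, and Lef1 at 6.11 and 2.89 CPM. Axin2 (400 and 429 CPM), Znrf3 (49.4 and 49.1 CPM) and Apcdd1 (5.47 and 5.06 CPM) were close. Summed tuft cell markers were at 434 CPM in replicate 1 and 166 CPM in replicate 2 (49.8 to 118 CPM at day 9), summed enterocyte markers at 10875 and 3537 CPM, and summed Paneth markers at 19596 and 2876 CPM. Their part in the differences of Lef1 and Nkd1 was not tested.

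Day 30, with 1 library that is assumed to vary like the other days, had 0 called members against day 9 by edgeR and 0 by DESeq2. In that comparison edgeR called 10.3% of all genes, 3.67% higher and 6.62% lower. The day 30 value lay outside the day 9 range for 8 members and for 72.2% of all genes. Lef1 was at 4.74 CPM, 2.70-fold above day 9 (log2 1.43, SE 0.42, edgeR adjusted p = 0.0690). It was called with only the libraries of these days (edgeR adjusted p = 0.0377) and with library totals in place of TMM scaling (edgeR adjusted p = 0.0327), a scaling that moved the median of all genes to 0.20. Axin2 (498 CPM), Znrf3 (55.3 CPM) and Nkd1 (19.6 CPM) lay above every day 9 library and Sp5 (21.4 CPM) and Wnt3 (13.2 CPM) below every one, without passing the test. Between days 21 and 30, 0 members passed by edgeR or by DESeq2, and edgeR called 0% of all genes (DESeq2 called 295). Here the groups of 5 members did not overlap, as for 68.9% of all genes.

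Day 21 against day 14 called 4 members higher and 1 lower, where 58.6% of all genes were called, 29.5% higher and 29.1% lower. The groups of 8 members did not overlap, as for 80.3% of all genes. The members' median log2 fold change was 0.78 against 0.06 over all genes. Beside Axin2, Apcdd1 rose 2.61-fold to 5.26 CPM (log2 1.39, SE 0.33, edgeR adjusted p = 0.0065), Znrf3 rose to 49.3 CPM (log2 0.58, edgeR adjusted p = 0.00225) and Nkd1 rose 1.88-fold to 17.3 CPM (edgeR adjusted p = 0.0417). Sp5 fell 1.64-fold (edgeR adjusted p = 0.0266). Leaving out day 14 replicate 1, day 14 replicate 2 or day 21 replicate 1 ended the call of Nkd1 (edgeR adjusted p = 0.142, 0.111 and 0.390), and leaving out day 14 replicate 1 or day 21 replicate 2 ended that of Sp5 (0.252 and 0.126). Rnf43 stayed at 151 and 157 CPM. Wnt3, at 8.61 and 13.6 CPM, missed the threshold (log2 0.66, SE 0.26, edgeR adjusted p = 0.0553) and passed it by DESeq2 (adjusted p = 0.0222) and 4 other settings.

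Paneth markers and Wnt3 were not lowest in the same bulk libraries. Summed markers of Paneth cells were at 21634 to 35923 CPM at day 9 and 27669 and 29003 CPM at day 14, then 2876 and 19596 CPM by day 21 and 1929 CPM in the last library. Wnt3 was lowest at day 14, where the Paneth sum was within the day 9 range, and was at 13.2 CPM at day 30, where that sum was lowest. Goblet markers summed to 6798 to 8925 CPM at day 9, 5088 and 5179 CPM by day 14 and 8016 to 14546 CPM later. Enteroendocrine markers, like Wnt3, were lowest at day 14, at 414 and 444 CPM against 528 to 650 CPM at day 9, 785 and 1231 CPM by day 21 and 614.7 CPM in the last library. Their part in the level of Wnt3 was not tested. Stromal and endothelial markers stayed at 41.0 CPM or less in all libraries, with 6 of 12 at 0 at day 14.

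The wider pathway was measured on the same days, and its counts at day 14 stand beside 25.7% of all genes lower and 25.4% higher. At day 14, 7 of 15 tested Wnt receptors fell and none rose: the co-receptor Lrp5 fell 8.93-fold to 16.1 CPM (edgeR adjusted p = 5.44e-07) and the Frizzled Fzd5 fell 5.38-fold to 39.3 CPM (edgeR adjusted p = 9.9e-07). Of 18 tested genes of cytoplasmic transduction 10 fell and 1 rose, among them Usp34, a deubiquitinase that acts on axin (6.21-fold lower), Gsk3b (2.40-fold lower) and Apc (2.03-fold lower), which are both part of the destruction complex. Nuclear factors went both ways, 7 higher and 5 lower of 15, with the beta-catenin cofactors Bcl9 (5.31-fold) and Bcl9l (3.36-fold) lower. The R-spondin receptors Lgr4 (2.08-fold) and Lgr5 (1.43-fold) fell. Among 21 other intestinal Wnt targets 8 fell, including Tiam1 (6.12-fold), Ccnd1 (3.71-fold) and Ephb2 (3.60-fold), and 7 rose. Targets with higher means at day 14 than at day 9 included Sox9 (355 against 165 CPM), Myc (337 against 171) and Ascl2 (90.5 against 51.2). The median log2 fold changes were -0.39 for receptors, -0.30 for cytoplasmic transduction, 0.34 for nuclear factors and -0.23 for the targets, against -0.04 for all genes.

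Fewer pathway genes passed at the later days, where 7.46% of all genes were higher and 12.8% lower at day 21, and 3.67% and 6.62% at day 30. Of the 15 receptors 3 rose at day 21 and 2 at day 30 with none falling. Of the 3 at day 21, Fzd4 and Fzd5 had fallen at day 14, and Fzd3 (1.43 CPM at day 14) went from a mean of 1.40 CPM at day 9 to 4.87 CPM at day 21 (edgeR adjusted p = 0.00791) and 6.46 CPM at day 30 (edgeR adjusted p = 0.0107). Of 15 nuclear factors 4 rose on each of these days. Tcf7l2, the main TCF of the intestinal epithelium and a relative of Lef1, rose from a mean of 28.5 CPM at day 9 to 59.2 CPM at day 14 (edgeR adjusted p = 9.8e-05), and was at 47.5 CPM at day 21 (edgeR adjusted p = 0.00303 against day 9) and 51.7 CPM at day 30 (edgeR adjusted p = 0.00687). Targets at day 21 were 3 higher and 7 lower of 21, with Prox1 rising 2.57-fold and Ccnd2 1.74-fold, and Id3 falling 1.81-fold. Ctnnb1, which encodes beta-catenin, fell 1.42-fold at day 14 (edgeR adjusted p = 0.000872) and lay 1.24-fold below day 9 at day 21 (edgeR adjusted p = 0.0281). Of 9 tested Wnt ligands other than the members, 1 fell at day 14 and 1 rose at day 21 and at day 30.

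Genes with the most similar profile over the 8 libraries were found by the root-mean-square difference of centred log2 CPM among 11621 genes, as a description for the 6 members whose day means spanned more than 1 on the log2 scale. Axin2 was nearest to Gigyf1 (0.066), Tns3 (0.11) and Mink1 (0.11). Gigyf1 was at 60.6 to 74.6 CPM at day 9, 14.3 and 16.9 CPM by day 14, 64.0 and 67.6 CPM by day 21 and 70.9 CPM in the day 30 library. Wnt3 was nearest to Trib1 (0.11), Ppp1r3b (0.12) and Pkd1 (0.15), and Apcdd1 to Rsad1 (0.11), BC030307 (0.15) and Cdk13 (0.15). Nkd1 (Ypel2 at 0.23, Lrp12 and Cib2), Lef1 (Ptpn6 at 0.24, Map2 and Map7d1) and Notum (Nrp2 at 0.41, Bex1 and S100a14) had no neighbour as close.

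**Figure D3:**
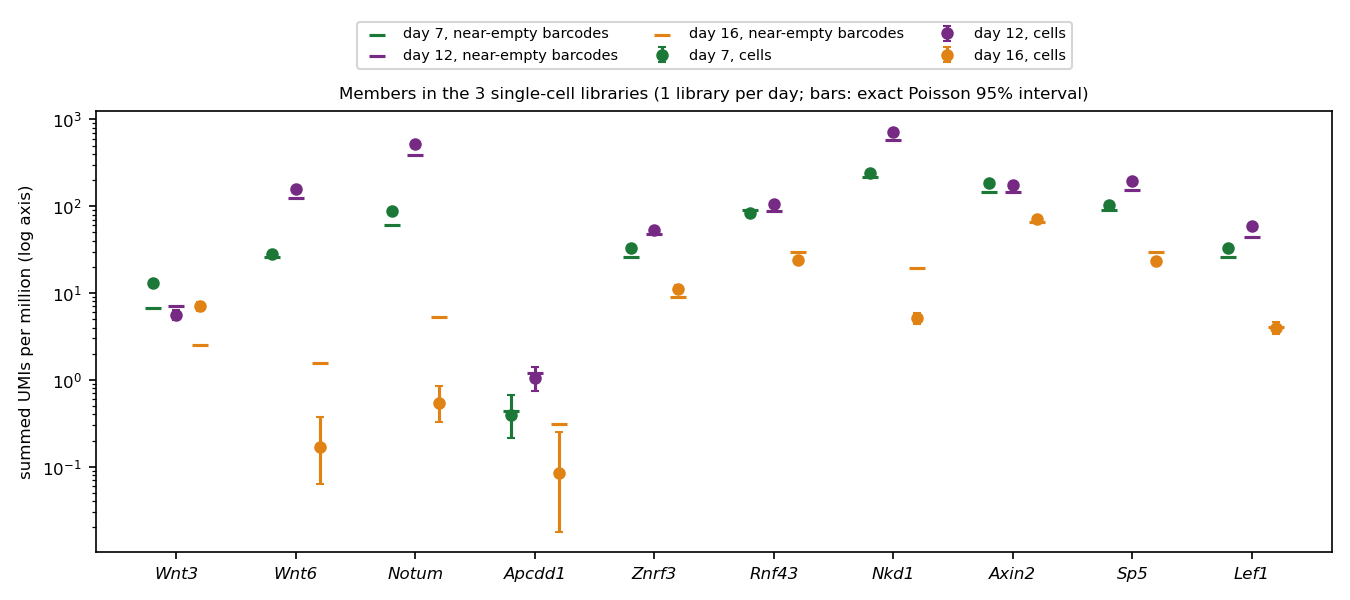
Summed CPM (y axis, log scale) of the 10 members (x axis) in the cells of days 7, 12 and 16, with exact Poisson intervals, and in near-empty barcodes of the same library (dashes). Day 16 is lowest for 9 members, and the near-empty barcodes of day 16 lie well above its cells for Wnt6, Notum and Nkd1.

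The single-cell libraries held the same genes at other levels and in another order. After filtering, 3828, 4685 and 2768 cells remained at days 7, 12 and 16, with medians of 7957, 7560 and 11905 UMIs (unique molecules), and doublets were not removed. The 3 libraries shared 5, 1 and 5 barcodes by pair (days 7 and 12, 7 and 16, 12 and 16). With 1 library a day there is no test: summed CPM is given with an exact Poisson 95% interval that covers counting error only, and genes are described as higher or lower where the ratio of CPM reached 2 and the summed UMIs 20.

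Nkd1 and Notum led the members at day 12. Nkd1 was at 244 CPM (239 to 249) at day 7, 721 CPM (713 to 729) at day 12 and 5.11 CPM (4.39 to 5.91) at day 16. Notum was at 88.9 CPM (85.8 to 92.0), 524 CPM (517 to 532) and 0.54 CPM (0.32 to 0.84), with 19 UMIs in all cells of day 16. Wnt6 was at 28.3 CPM (26.6 to 30.1), 159 CPM (155 to 163) and 0.17 CPM (0.062 to 0.37), the last from 6 UMIs. All 3 genes were thus among the abundant members at day 12. At day 16 all 3 lay below the near-empty barcodes of that library (19.5 CPM for Nkd1, 5.33 CPM for Notum and 1.57 CPM for Wnt6), so no fold against day 16 is given. Markers of other cells also differed at day 12: stromal and endothelial markers summed to 101, 689 and 22.5 CPM at days 7, 12 and 16, nearly all of it Vim (98.4, 678 and 21.5 CPM), with 4, 5 and 3 of the 12 at 0. Ungated cells, those that passed none of the marker gates described later, had median Paneth scores of 8.38, 17.96 and 1.11 per 10000 UMIs. Their part in the day 12 levels was not tested.

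The other feedback genes differed less. Axin2 was at 186 CPM (181 to 190), 174 CPM (170 to 178) and 70.5 CPM (67.8 to 73.4), so days 7 and 12 were close and day 16 was 2.63-fold (2.51 to 2.76) below day 7. The near-empty barcodes of day 16 held Axin2 at 64.9 CPM (56.4 to 74.4), an interval that covers the level in cells. Sp5 was at 104, 193 and 23.4 CPM, and Lef1 at 32.6, 59.1 and 3.97 CPM. Znrf3 was at 33.3, 53.7 and 11.2 CPM and Rnf43 at 83.9, 105 and 24.3 CPM. Wnt3, like Axin2, was highest at day 7, at 12.9 CPM (11.7 to 14.1), with 5.58 CPM (4.87 to 6.36) at day 12 and 7.01 CPM (6.16 to 7.94) at day 16. With cells of at most 10% mitochondrial UMIs its day 16 level was 14.5 CPM and its day 7 level 15.3 CPM, and Sp5 was at 14.7 CPM at day 16. Apcdd1 was near its limit throughout, with 14, 42 and 3 UMIs.

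By the 2-fold rule, day 12 against day 7 had 4 members higher (Wnt6, Notum, Nkd1 and Apcdd1) and 1 lower (Wnt3) of 10, where 11.3% of all measured genes were higher and 4.12% lower. Day 16 against day 7 had 8 of 9 measured members lower and none higher, where 11.6% of all genes were lower and 9.38% higher, and the members' median log2 ratio was -2.10 against -0.12. Day 16 against day 12 had 9 of 10 lower and none higher, against 20.4% and 10.7% of all genes. The 2 comparisons with day 16 share that library, the one with Y-linked transcripts. As the members were chosen with earlier results known, these counts are no test of enrichment.

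The order of UMI counts within a day also differed. Whether genes were captured equally well was not measured, so the order describes counts and not abundance. At day 12 it ran Nkd1, Notum, Sp5, Axin2, Wnt6, Rnf43, Lef1, Znrf3, Wnt3 and Apcdd1. At day 7 it began with Nkd1, Axin2 and Sp5, and the intervals of Notum and Rnf43 overlapped, as did those of Znrf3 and Lef1. At day 16 it began with Axin2, followed by Rnf43 and Sp5 with overlapping intervals, and Notum, Wnt6 and Apcdd1 were last. Notum and Wnt6 lay there below the near-empty barcodes.

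Shares of cells, after each cell was thinned to 2000 UMIs, gave the same picture per cell. Notum had a UMI in 14.3%, 53.3% and 0.14% of cells at days 7, 12 and 16, Nkd1 in 35.8%, 70.6% and 1.26%, and Axin2 in 31.0%, 29.2% and 13.3% (34.1%, 82.2% and 0.65%, 74.2%, 94.9% and 5.49%, and 74.0%, 70.6% and 49.7% without thinning). Among the enterocyte-marked cells of day 12, a differentiated type, 0 of 16 thinned cells had a UMI of Notum or Nkd1 (upper 95% limit 20.6%) and 6.25% had one of Axin2 (0.16% to 30.2%), at a median depth of 18972.5 UMIs before thinning. Among the 91 such cells of day 16 the share was 0% for all 3 genes (upper limit 3.97%). Near-empty barcodes, of 10 to 100 UMIs, held these genes on every day. At day 7 they held Nkd1 at 220 CPM, Notum at 60.7 CPM and Rnf43 at 89.5 CPM, the last above its 83.9 CPM in cells, and at day 12 Nkd1 at 575 CPM and Notum at 385 CPM. Part of each share of cells can therefore come from free RNA, and that part was not measured. At day 16 they held Notum at 5.33 CPM and Nkd1 at 19.5 CPM, above the cells, so the summed levels of both genes at day 16 are not read as expression. The same barcodes held Rnf43 and Sp5 at 29.8 CPM each, against 24.3 and 23.4 CPM in cells.

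**Figure D4:**
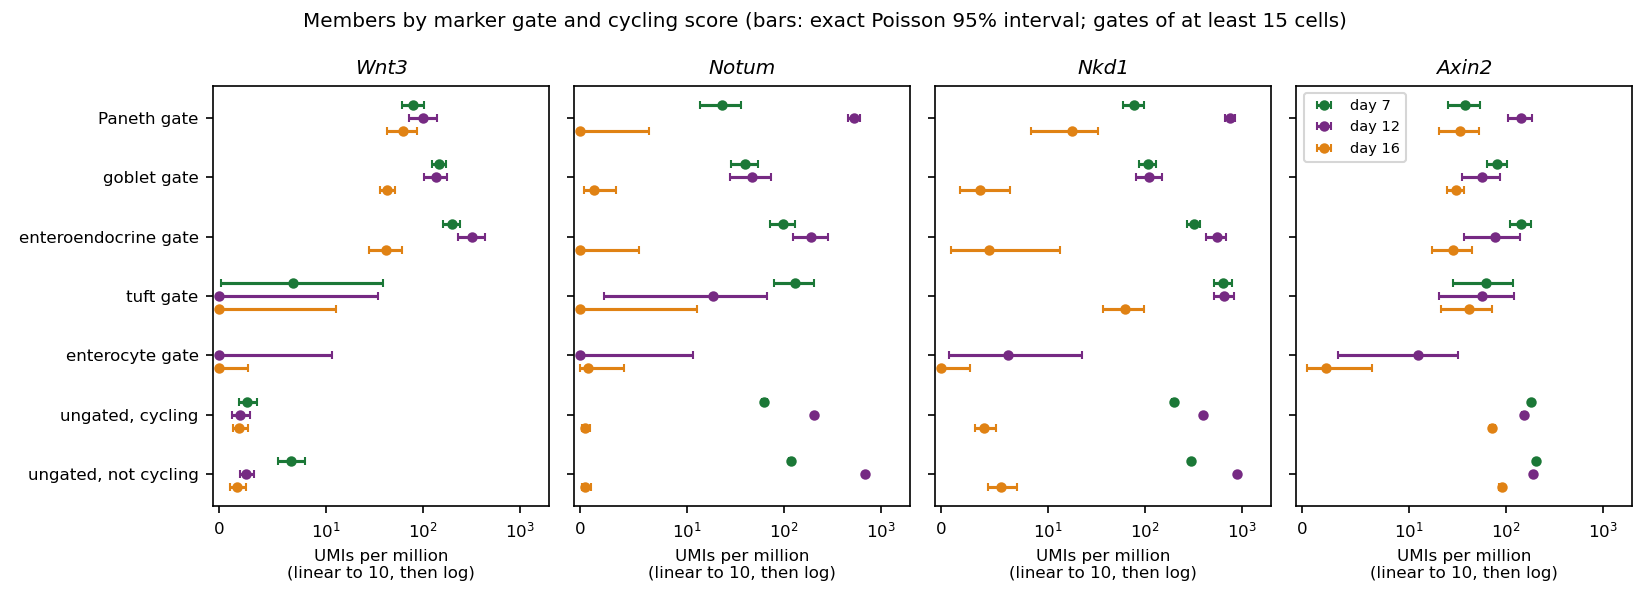
CPM (x axes, linear to 10 and logarithmic above) of Wnt3, Notum, Nkd1 and Axin2 in cells gated by markers and in ungated cells split by cycling score (y axis), for days 7, 12 and 16, with exact Poisson 95% intervals. Wnt3 is highest in the Paneth, goblet and enteroendocrine gates on all 3 days, and Nkd1 and Axin2 are not highest there on any day.

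Wnt3 was the member that followed cell type most clearly. Cells were gated by summed markers with limits set after the data were seen, and gated cells were few: 40, 37 and 31 Paneth-marked cells, 84, 31 and 256 goblet-marked and 80, 25 and 90 enteroendocrine-marked at days 7, 12 and 16. Wnt3 was at 79.0 CPM (60.7 to 101) in Paneth-marked, 146 CPM (123 to 172) in goblet-marked and 199 CPM (161 to 243) in enteroendocrine-marked cells of day 7, against 4.78 CPM (4.06 to 5.58) in ungated cells. At day 12 the 4 values were 100 (70.7 to 139), 136 (102 to 178), 320 (230 to 432) and 2.38 CPM (1.92 to 2.92), and at day 16 they were 61.5 (42.8 to 85.5), 42.8 (35.8 to 50.8), 41.8 (27.8 to 60.4) and 1.81 CPM (1.36 to 2.37). These 3 gates held 65.3% of all Wnt3 UMIs at day 7, 58.7% at day 12 and 78.1% at day 16, but 6.31%, 2.20% and 12.1% of all UMIs. Tuft-marked cells had 1, 0 and 0 Wnt3 UMIs and enterocyte-marked cells none. Enteroendocrine-marked cells had median scores of 50.1 and 48.2 per 10000 UMIs at days 7 and 12 but 625 at day 16. Their Wnt3 levels therefore compare weakly with strongly marked cells. The goblet gate also carried Paneth markers, at medians of 182, 118 and 59.3 per 10000 UMIs, and 89 cells of day 12 lay within 2-fold of the Paneth limit. The gates are thus ranges of marker level rather than clean types.

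Nkd1 was distributed otherwise. Tuft-marked cells (20, 16 and 34 cells) had 638 CPM (515 to 782), 660 CPM (516 to 833) and 61.9 CPM (36.7 to 97.9), against 249, 733 and 4.72 CPM in ungated cells. At days 7 and 16 the tuft-marked level was above the ungated one beyond the intervals, and at day 12 the intervals overlapped. The tuft-marked level of day 16 was also above the near-empty barcodes (14.9 to 24.9 CPM). Tuft-marked cells had median tuft scores of 41.1, 35.6 and 123 per 10000 UMIs at days 7, 12 and 16, so those of day 16 were more strongly marked. Notum in the same tuft-marked cells was at 130 CPM (78.5 to 204) at day 7 and 18.6 CPM (2.25 to 67.2) at day 12, where ungated cells had 536 CPM (529 to 543). Goblet-marked cells of day 12 also had little Notum (46.3 CPM, 27.5 to 73.2) and no Wnt6 UMI, while Paneth-marked cells had Notum at 527 CPM (455 to 606). At day 7 Paneth-marked cells had Notum at 22.6 CPM (13.4 to 35.7), below the 91.7 CPM of ungated cells. The Paneth-marked cells of day 12 were weakly marked, with a median score of 399.6 per 10000 UMIs against 3401 at day 7 and 4042 at day 16. Enterocyte-marked cells of day 12 had at most 4 UMIs of any member.

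Within ungated cells of days 7 and 12, every member was lower where cycling markers were high. Only the intervals of Wnt3 at day 12 and of Apcdd1 at day 7 overlapped. At day 12, 980 cells reached the cycling limit and 3579 did not: Notum was at 205 CPM (197 to 213) and 687 CPM (677 to 697), Nkd1 at 395 CPM (384 to 406) and 888 CPM (876 to 899), and Wnt6 at 71.3 CPM (66.6 to 76.2) and 206 CPM (200 to 211). Axin2 differed least, at 154 CPM (147 to 161) and 189 CPM (183 to 194). At day 7 the direction was the same for these 4 genes, with Notum at 62.3 and 118 CPM and Axin2 at 183 and 203 CPM. At day 16 only Axin2 of the 4 was high enough to compare, at 72.2 CPM (68.1 to 76.3) and 90.5 CPM (85.3 to 95.9). The lower value lay within the interval of the near-empty barcodes of that day (56.4 to 74.4 CPM). Cycling cells were deeper, with a median of 12033 UMIs against 6899 at day 12, and 928 cells lay within 2-fold of the limit.

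An Lgr5 UMI separated levels at day 16 more than earlier. The 240 ungated cells of day 16 with an Lgr5 UMI had Axin2 at 131 CPM (117 to 145) against 75.1 CPM (71.9 to 78.5) in the 2012 without, Sp5 at 45.5 against 24.7 CPM, and Lef1 at 12.4 CPM (8.51 to 17.6) against 3.37 CPM (2.71 to 4.15). Near-empty barcodes held Sp5 at 29.8 CPM and Lef1 at 4.08 CPM, above the lower value of each. They held Axin2 at 64.9 CPM (56.4 to 74.4), with an interval that overlaps that of its lower value. Nkd1 is not compared there, since both of its levels lay under that of near-empty barcodes. Znrf3 (14.8 and 11.8 CPM) had overlapping intervals. At day 7 the same split gave 207 and 188 CPM for Axin2 and 254 and 248 CPM for Nkd1, and at day 12 188 and 172 CPM and 808 and 696 CPM. A cell counted here as without an Lgr5 UMI may have held one before thinning. It may also express the gene without a UMI, since detection depends on depth.

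Other Wnt genes of the single-cell libraries, named after their values were seen, fell into both patterns. The secreted inhibitors Wif1 (7.72, 49.5 and 0.085 CPM) and Dkk3 (11.2, 60.2 and 0.028 CPM), the target Prox1 (91.3, 163 and 1.76 CPM) and the ligand Wnt10a (1.27, 9.82 and 0.31 CPM) were highest at day 12 and lowest at day 16. Fzd5 (11.5, 8.16 and 55.3 CPM), the inhibitor Sfrp5 (1.55, 2.73 and 14.9 CPM) and Ccnd2 (207, 171 and 536 CPM) were highest at day 16. Of 21 other intestinal targets, 12 were lower and 1 higher at day 16 against day 7, and of 15 receptors 5 were lower and 3 higher, where 11.6% of all measured genes were lower and 9.38% higher.

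The bulk and single-cell levels stand side by side only, since assay and days differ. Notum had 0.24 to 0.77 CPM in the bulk libraries of day 9 and 88.9 and 524 CPM in the cells of days 7 and 12, Wnt6 0.39 to 0.81 CPM against 28.3 and 159 CPM, and Lef1 1.59 to 1.87 CPM against 32.6 and 59.1 CPM. Axin2 was at 367 to 483 CPM against 186 and 174 CPM. Day 16, at 0.54 CPM of Notum and 0.17 CPM of Wnt6, lay below its near-empty barcodes for both genes and is matched to no bulk day. Bulk Notum was at 0.049 and 0.56 CPM at day 14 and at 1.24 and 0.95 CPM at day 21, beside the day 9 range above.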

How the data were processed

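The bulk table holds whole-number counts per gene as deposited by the authors, and each deposited single-cell matrix holds whole-number UMI counts for genes and barcodes. The submitters' processing notes list Cell Ranger 3.0.2, STAR 2.5.3a and DESeq2 among the tools, and mm9 as build. The role of each tool and the gene counter used are not stated there. In the bulk file, 1 column was left out because its name gives replicate 2 of a day that no sample has. Replicate 2 of day 30, which matches no column name, was not analysed here, and whether the column is that sample was not settled. 27 gene symbols are spreadsheet dates.

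Bulk counts were fitted with 1 mean per day over 8 libraries in edgeR 4.0.16 (R 4.3.3): expression filter, TMM scaling, the quasi-likelihood F test, and p-values adjusted by Benjamini-Hochberg across 14692 genes. Residual degrees of freedom were 4. SE is the size of the log2 fold change over the square root of F, and CPM uses TMM effective library sizes. DESeq2 1.42.0, other scalings, no filter, a replicate block and left-out libraries were alternatives. On data simulated for day 21 against day 9 (14080 genes), 34 of 49 genes with a 2-fold rise and 28 of 48 with a 2-fold fall were called. There 13887 genes were left unchanged and all genes had the same spread. The real comparison called 2974 of 14692 genes, so these shares are not the power of the actual test. Replicates differed beyond counting noise (chi-square divided by its degrees of freedom was at least 9.35 for each pair).

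Single cells (Python 3.11.15, SciPy 1.17.1) were barcodes with 500 genes or more and no more than 20% mitochondrial UMIs, above a total of 2532 (day 7), 2179 (day 12) or 2812 (day 16). No doublet caller was run. Gates were summed markers per 10000 UMIs of at least 200 (Paneth), 50 (goblet and enterocyte) and 20 (enteroendocrine, tuft and immune), and 10 for cycling. Shares have exact Clopper-Pearson intervals.

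Named pathway genes were up to 3 called genes per list and comparison with the largest change at a mean log2 CPM of at least 1. Sox9, Myc and Ascl2 were named outside this rule, as targets with higher means at day 14. The members, gene lists and marker lists were chosen with earlier results of these data known.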

Additional observations from a re-analysis of the deposited data

How the results depend on the processing

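Of 520 refitted log2 fold changes of single members, 455 stayed on the same side of 0 and of the threshold, 21 lost and 13 gained a call, and 31 changed sign, 0 of them called in either fit. For day 21 against day 9 (2 members called), 1 was called with library totals, with DESeq2 size factors, with only the compared libraries, under the replicate block and without the day 14 libraries (the last chosen after seeing the data). For day 30 against day 9 (0 called), 1 was called with library totals and with only the compared libraries. Leaving out single libraries gave 4 to 6 members called at day 14 against day 9, 0 to 1 at day 21 against day 9, 4 to 5 at day 21 against day 14, and 0 to 0 for the 2 comparisons of day 30, whose lone library was not left out. Deviations of same-numbered libraries were nearly uncorrelated (correlations across genes of -0.02 to 0.05). With only 2 libraries each at days 14 and 21, this cannot exclude a pairing by number. The replicate block left 5 members called at day 14 against day 9 and ended the call of Lef1 at day 21 (adjusted p = 0.114). Over all genes it called 1689 against 2974 for day 21 and 764 against 1511 for day 30, each against day 9, where library totals called 3837 and 2377.

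The changes of sign were as follows. Sp5 at day 14 against day 9 was at -0.0129 with DESeq2 and with its size factors, -0.0168 with only these libraries and -0.15 under the replicate block. With library totals, which moved the median gene by about 0.2, Apcdd1 was at 0.0883 and Axin2 at 0.18 at day 21, and Apcdd1 at 0.0617 and Rnf43 at 0.16 at day 30, all against day 9. Axin2 at day 21 was at 0.0039 with DESeq2 and with its size factors. Under the block Nkd1 was at -0.0038 at day 21 against day 9, and Wnt3 at 0.0051 and Lef1 at -0.0167 at day 30 against day 21. Leaving out single libraries, log2 changes ranged at day 14 against day 9 from -3.20 to 0.24 (Notum), -0.34 to 0.25 (Sp5) and -0.70 to 0.33 (Wnt6). At day 21 against day 9 they ranged from -0.18 to 0.0163 (Apcdd1), -0.13 to 0.0746 (Axin2) and -0.42 to 0.63 (Nkd1), and at day 30 against day 9 from -0.0898 to 0.0242 (Rnf43) and -0.59 to 0.0445 (Wnt6). At day 21 against day 14 Rnf43 ranged from -0.0375 to 0.14. At day 30 against day 21 ranges were -0.0744 to 0.0372 (Apcdd1), -0.37 to 0.71 (Lef1), -0.25 to 0.80 (Nkd1), -0.23 to 0.15 (Notum) and -0.12 to 0.0386 (Wnt3). The cause was not tested.

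In single cells, the summed CPM of all 10 members at days 7, 12 and 16 was 813, 1996 and 146, and 864, 2025 and 124 with a mitochondrial limit of 10%. A limit of 1000 UMIs moved none of these sums beyond counting error. Day 30 rests on 1 library and each single-cell day on 1, and Notum, Wnt6 and Apcdd1 rest on few counts in bulk or at day 16.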
